A study of Mus musculus with 3 samples.

Results

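Chemokines, interleukins and their receptors were examined in mouse CPE (choroid plexus epithelium), the sheet of cells that makes cerebrospinal fluid and forms the barrier between it and the blood. They were taken by name, as every probe whose gene symbol on the array starts as a CC, CXC or CX3C chemokine, a chemokine receptor or a numbered interleukin gene. This gave 191 probes for 134 gene names, out of 41174 probes with 27845 names. CPE was laser dissected from frozen brain sections of 20 µm of 3 healthy C57BL/6 mice of 18 to 21 weeks, and the amplified RNA of each mouse carried the red dye on its own 2-colour whole mouse genome array. A common RNA from mouse retinal pigment epithelium (RPE) and choroid carried the green dye on all 3 arrays, so the reference has no spread between animals and any dye bias of a probe stays in its ratio. No treatment or engineered allele is given for either RNA.

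Chemokines are small secreted proteins that guide leukocytes along a gradient, through receptors coupled to G proteins. Interleukins are secreted messengers of immune and barrier cells and act through receptor chains that pair on the cell surface, with some chains shared by several ligands. Antagonists and decoy chains hold some of these signals back. At the choroid plexus such molecules take part in the traffic of leukocytes into the cerebrospinal fluid and in the response of the epithelium to cytokines.

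Higher in CPE than in the reference were 5 probes of 4 genes, Il1r1, Il1rap, Il17rc and Il25, which is 4.76% of the members tested against 7.09% of all probes tested. Lower in CPE were 12 probes of 12 genes, which is 11.4% against 10.2% of all probes tested. Of these, 6 were chemokines (Ccl6, Ccl8, Ccl9, Ccl11, Cxcl4 and Cxcl7), 1 was the scavenging receptor Cxcr7, and 5 belonged to the interleukin-1 family (Il18, Il33, Il1rl2, Il1r2 and Il1rn). Probes of Ccl4, Il10rb, Il11ra1, Cxcl12, Il17rc, Cx3cl1 and Cxcr7 were above the 90th percentile of CPE signal. The inducible genes Il6, Il10 and Ccl20 did not rise clear of background in any of the 3 CPE samples. Others that are inducible, such as Il1b, Ccl2, Ccl4 and Ccl5, were above background in all 3.

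Promoter letters are shown for 6 members, to set a sequence tied to inflammatory induction beside the measured levels. They were picked from the 11 members with the motif after the values were seen, as 4 genes above background in 0 or 1 CPE sample and 2 genes past the threshold. GGG followed by 2 bases of any kind and TTTCC, a form of the NF-kappaB site, was searched on both strands in the 250 bases before each gene start of the RefSeq promoter table (GRCm38.p6). A match stood in 464 of 32851 promoters (1.41%) and in 11 of the 126 promoters of members (8.73%). The table had a promoter for 106 of the 134 member genes. This was 1 of 7 motifs searched and was picked after the levels were known. The others stood in 12.7% of member and 4.46% of all promoters (TGACTCA, the AP-1 site), 19.8% and 12.4% (TATAAA, the TATA box), 1.59% and 6.02% (CACGTG, an E-box), 23.0% and 32.7% (GGGCGG, the GC box), 9.52% and 7.02% (TTC and GAA 3 bases apart, a STAT site), and 3.97% and 2.98% (GAAA repeated 2 bases apart, an interferon response element). Capitals mark the motif or its reverse complement, and each sequence runs 5′ to 3′ on the strand of the gene.
Cxcl1: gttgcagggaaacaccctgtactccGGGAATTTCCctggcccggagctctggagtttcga
Cxcl2: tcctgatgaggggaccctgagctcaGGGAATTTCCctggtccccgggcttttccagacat
Ccl20: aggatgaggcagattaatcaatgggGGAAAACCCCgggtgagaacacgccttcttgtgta
Il6: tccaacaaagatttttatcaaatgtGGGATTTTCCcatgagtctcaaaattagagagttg
Ccl9: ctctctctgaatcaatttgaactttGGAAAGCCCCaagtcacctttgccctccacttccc
Il17rc: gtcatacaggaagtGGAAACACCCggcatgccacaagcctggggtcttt
Cxcl1 (chr5:90891149-90891208) and Cxcl2 (chr5:90903777-90903836) attract neutrophils, Ccl20 (chr1:83116661-83116720) is the ligand of Ccr6, and Il6 (chr5:30013045-30013104) drives the acute-phase response; all 4 lie on the plus strand. None of these 4 was above background in more than 1 CPE sample. Ccl9 (chr11:83578637-83578696, minus strand) was measured in all 3 and lower than in the reference, and Il17rc (chr6:113471205-113471253, plus strand) was measured and higher. The other members with a match were Ccr3, Il16, Il1rn, Il23r and Il9, whose probes were above background in 0 to 2 CPE samples; 1 of the 2 Il1rn probes was lower in CPE. A match is a run of letters and not a measured binding site.

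A probe was taken as measured in a channel where the scanner called it well above background on all 3 arrays. In CPE this held for 59 of the 191 member probes (30.9%), against 44.9% of all probes, and in the reference for 102 (53.4%), against 61.5% of all probes. No CPE sample was above background for 26 member probes (13.6%), against 12.1% of all probes. Of the 134 genes, 47 had a probe measured in CPE and 13 had no probe above background in any CPE sample. Member probes above background numbered 83 in mouse 1, 62 in mouse 2 and 161 in mouse 3. The array of mouse 3 was the highest over all probes too, with 35233 above background against 24079 and 18933. Most member probes above background in 1 CPE sample only were so on that array. For them array and animal cannot be told apart.

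**Figure D1:**
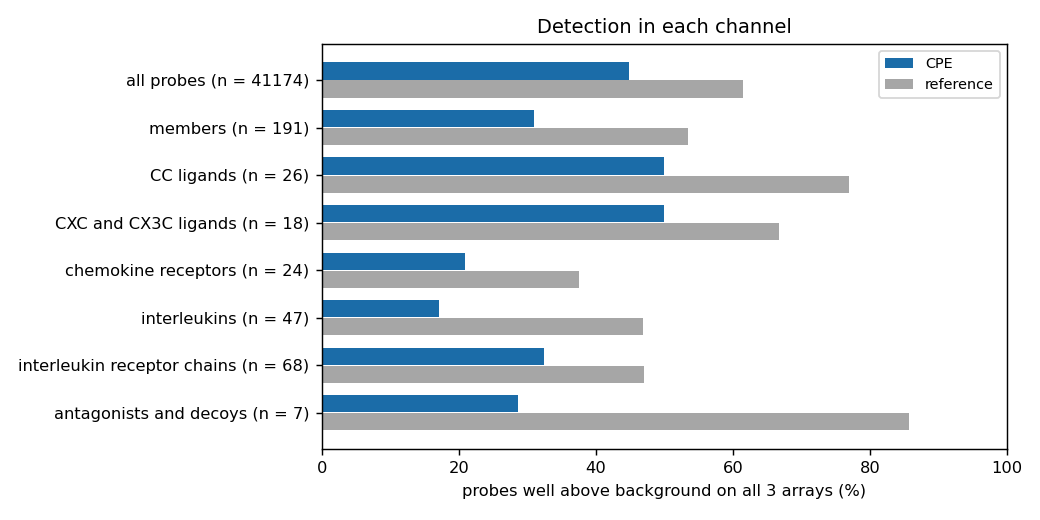
Share of probes well above background on all 3 arrays (horizontal axis, percent) in the CPE channel (blue) and the reference channel (grey), for all probes, all member probes and the members by role (n is the number of probes). Both groups of chemokine ligands reached 50% in CPE, and the interleukins 17%.

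Detection in CPE varied with the role of the gene. CC ligands were measured for 13 of 26 probes and CXC or CX3C ligands for 9 of 18. Interleukin receptor chains followed with 22 of 68, chemokine receptors with 5 of 24 and the interleukins themselves with 8 of 47. Among antagonists and decoys 2 of 7 probes were measured, both of Il18bp, the secreted protein that binds interleukin-18. In the reference the interleukins reached 22 of 47 probes and the antagonists and decoys 6 of 7. This role was a fixed list of 4 genes, among them Il18bp, Il1r2 and Il1rn. The decoy Il22ra2 and the antagonist Il1f5 were counted under receptor chains and interleukins, and none of their probes was measured in either channel. No difference between roles was tested.

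CPE identity was checked on marker genes outside the family. Of 15 tested probes of CPE markers such as Ttr and Kl, 13 were higher in CPE and 0 lower. Macrophage and microglia markers were measured in CPE for 13 of 17 probes, and 6 of 16 tested probes were lower there, with 0 higher. Their summed CPE level was 13.8 to 13.9 on the log2 scale over the mice, against 16.2 to 16.3 in the reference. The median log2 ratio of the tested probes was -0.67, and the 2 probes of the lysozyme gene Lyzs lay far below it at -2.79 and -3.40. The brighter Lyzs probe, at a mean of 15.7 in the reference and 12.3 in CPE, made up most of the reference sum. Stroma markers were lower for 5 and higher for 1 of 8 tested probes, with a median of -1.47 (Dcn at -3.79 and Col3a1 at -2.24 among them). Their summed log2 level was 14.3 to 14.5 in CPE against 16.8 to 17.1 in the reference. Most of the reference sum was a single Dcn probe, at a mean of 16.4 and saturated on 2 reference arrays, against 12.7 in CPE. Granulocyte and mast cell markers were lower for 2 of 6 tested probes, S100a9 at -2.04 and Cpa3 at -1.04, with a summed log2 level of 9.66 to 9.99 against 10.6 to 10.8. Among T and B cell markers 1 of 15 probes was measured in CPE, a probe of Cd3e, and 0 of 5 tested probes were called. Markers of all leukocytes had 0 higher and 0 lower of 6 tested probes, with a median log2 ratio of -0.43. Endothelium markers had 1 higher and 0 lower of 7 tested probes, with a median of 0.69. Markers of RPE and melanocytes were lower in CPE for 8 of 8 probes, with a median log2 ratio of -5.41. Photoreceptor markers were lower for 7 of 7, with a median of -4.85. The summed log2 level of the photoreceptor markers was 12.1 to 12.4 in CPE against 17.2 to 17.3 in the reference. However, 8 and 6 of these probes were well above background in all CPE samples as well, and 14 of 16 CPE marker probes were so in the reference. Being above background thus does not by itself separate the tissues, while the ratios of these lists were large. In dissected tissue, fewer cells of a type and less RNA per cell cannot be told apart.

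The classes of the study rank the CPE signal of a probe among all probes, where percentiles over 90 are high, 50 to 90 moderate, 10 to 50 low and the rest very low. Probes differ in how brightly they hybridise, so a rank does not order transcripts by abundance. Of the member probes 9 were high (4.71%), 64 moderate, 101 low and 17 very low, and the median stood at percentile 37.5. In each single mouse 6 of the 9 stayed above the 90th percentile. Of the 59 members measured in CPE, 1 stood below percentile 50.

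**Figure D2:**
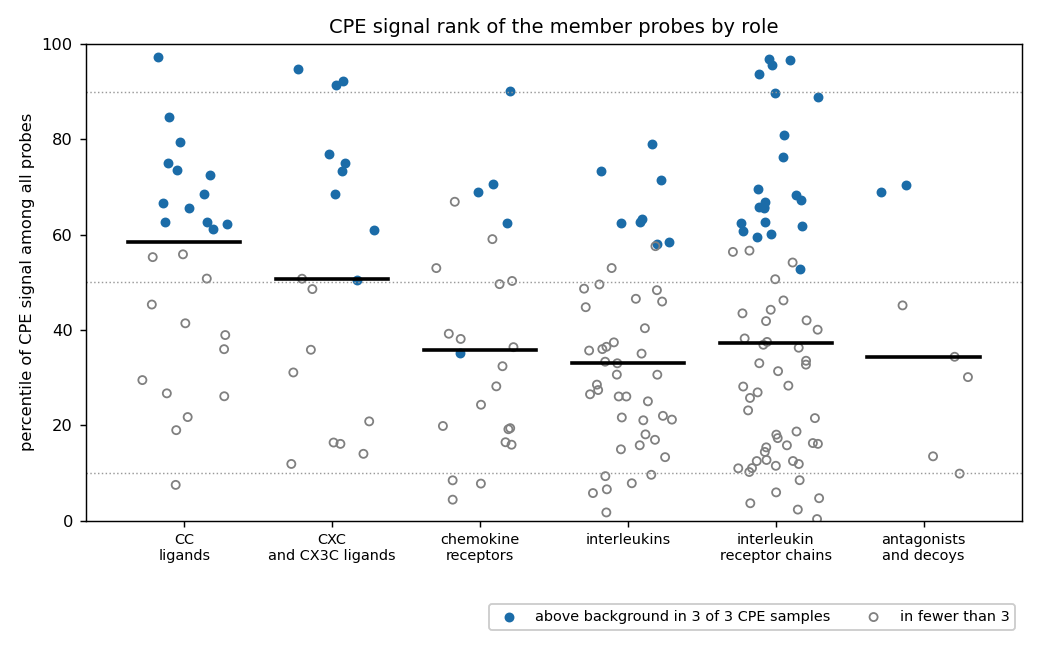
Percentile of the mean CPE signal among all probes (vertical axis) for each member probe, by role (the probe of the enzyme gene Il4i1 is not drawn). Blue points were above background in 3 of 3 CPE samples, open points in fewer, black bars are medians, and dotted lines mark percentiles 10, 50 and 90. CC ligands had a median of 58.5 and interleukins of 33.0, and no interleukin probe was above the 90th percentile.

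Among the ligands, Cxcl12, which retains leukocytes and progenitors through Cxcr4, had a probe at percentiles 94.1, 94.9 and 95.1 in mice 1 to 3 and another at 89.6, 93.2 and 92.8. Both were bright in every mouse. Their log2 ratios to the reference, 0.33 ± 0.15 (SE, n = 3; limma adjusted p = 0.118) and -0.17 ± 0.17 (adjusted p = 0.459), did not pass the test. With median centring the first was 1.02 and past the threshold. Cx3cl1, the membrane-anchored ligand of the monocyte and microglia receptor Cx3cr1, stood at percentiles 89.2, 93.8 and 89.6. It was 1.51-fold above the reference (log2 ratio 0.59 ± 0.16; limma adjusted p = 0.0226), which is under the 2-fold threshold, whereas with median centring it was 1.22 and past it. Another Cx3cl1 probe was above background in 1 CPE sample and stood at percentile 48.6. Its receptor Cx3cr1 had a measured probe with log2 ratios of 1.18, 0.31 and 0.18, whose mean of 0.56 ± 0.22 did not pass (limma adjusted p = 0.0787).

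Ccl4, an attractant of monocytes and lymphocytes, had the brightest member probe, at percentiles 96.1, 97.9 and 97.0. Its log2 ratios were 0.12, 0.81 and 0.25, and their mean of 0.39 ± 0.18 did not pass the test (limma adjusted p = 0.128). With median centring it was 1.16 and past the threshold. The neighbouring gene Ccl3, a close relative of Ccl4, had its probe at percentiles 16.6, 11.3 and 8.01 and was above background in 1 CPE sample.

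Receptor chains made up most of the other high probes. Il10rb, a chain of the receptors for interleukin-10, interleukin-22 and the lambda interferons, stood at percentiles 96.3, 97.6 and 96.1, with a log2 ratio of 0.30 ± 0.16 (limma adjusted p = 0.173), or 1.07 and past the threshold with median centring. Another probe named Il10rb was above background in no CPE sample and stood at percentile 14.4. Il11ra1, the binding chain for interleukin-11, had 2 probes at percentiles 96.7 and 95.6, with log2 ratios of -0.11 ± 0.17 and 0.02 ± 0.15 (limma adjusted p = 0.65 and 0.933). These lie on chromosome 4 at 41957866-41957925 and 41957790-41957849 (mm8), beside the Ccl27 probe at 41958401-41958460. Il11ra1 and Ccl27 have near-identical copies in the mouse genome, so which copy gave the signal is uncertain. Il6st, the signalling chain of the interleukin-6 and interleukin-11 receptors, stood at percentile 88.8 and was 1.40-fold below the reference (log2 ratio -0.48 ± 0.15; limma adjusted p = 0.0352). Its partner Il6ra was above background in 2 CPE samples at both probes, and the ligand Il6 stood at percentile 1.71.

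The ratio of CPE over reference was tested for the 105 member probes measured in at least 1 channel, and a call needed a 2-fold change with an adjusted p under 0.05. Higher in CPE were 5 probes of 4 genes (4.76% of those tested), against 7.09% of all probes tested. Lower were 12 probes of 12 genes (11.4%), against 10.2% of all probes tested. Both shares were near those of the whole array, and the median log2 ratio was 0.03 over members and -0.04 over all probes tested. With median centring in place of loess 12 of the 17 probes remained past the threshold, and the members then split into 11 higher and 7 lower. All probes tested then split into 3744 higher and 1842 lower, against 1833 and 2629 with loess. Median centring moved the median of all probes by 0.13, but single members moved further. Ccl4 went from 0.39 to 1.16, Il10rb from 0.30 to 1.07 and Cxcr7 from -1.59 to -0.91. When tested against a 2-fold change rather than 0, the calls of Ccl6 and Ccl11 remained.

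**Figure D3:**
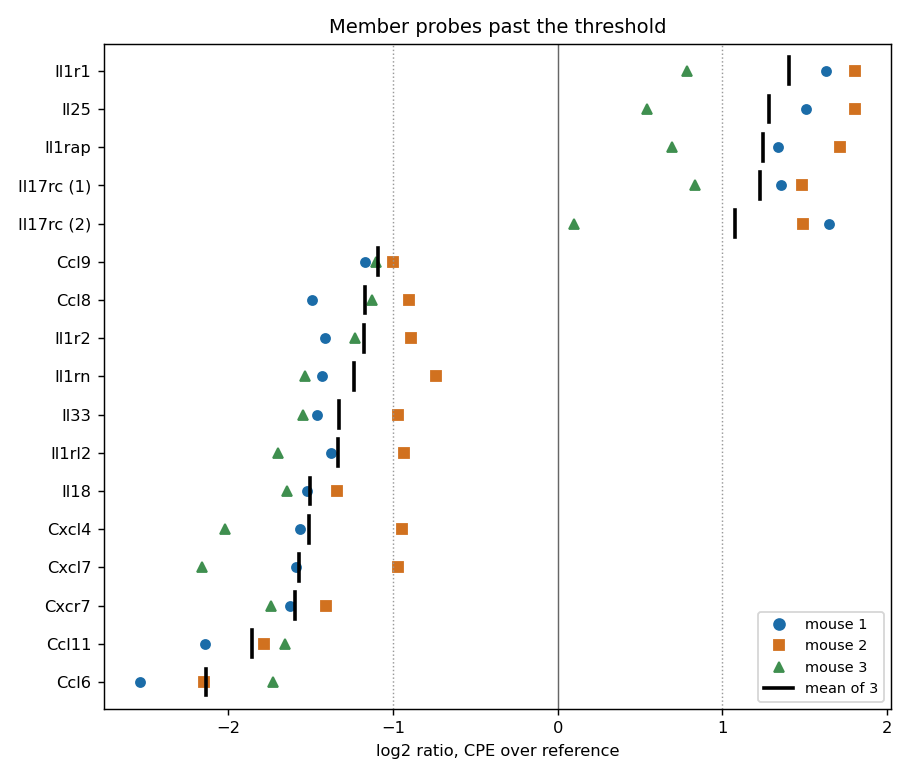
Log2 ratio of CPE over reference (horizontal axis) of the 17 member probes past the threshold, with a marker for each mouse and a black bar for the mean. Dotted lines mark 2-fold. Each of the 17 had one sign in all 3 mice; the 5 higher probes had their smallest ratio in mouse 3, where the Il17rc probe marked (2) was at 0.10.

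By role, interleukin receptor chains held 4 higher probes and 1 lower probe of 34 tested. Over all probes tested 7.09% were higher and 10.2% lower. Chemokine ligands held 0 higher and 6 lower of 32 tested. The interleukins had 1 higher probe, Il25, and 2 lower ones, Il18 and Il33, of 23 tested. Antagonists and decoys had 2 lower of 6 tested, Il1r2 and Il1rn, and chemokine receptors 1 lower of 9 tested, Cxcr7. Of the 17 called probes 9 were measured in both channels, so the size of the other 8 rests on a channel that was near background on at least 1 array. Those 8 were the probes of Ccl8, Ccl11, Cxcl7, Il1r2, Il1rn and Il1rl2 among the lower, and of Il25 and Il1rap among the higher.

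Il1r1, the signalling receptor of interleukin-1 alpha and beta, had log2 ratios of 1.63, 1.81 and 0.79 in mice 1 to 3. All 3 samples were above the reference, by 2.65-fold on average (1.41 ± 0.22; limma adjusted p = 0.00217). Its probe lies on chromosome 1 at 40260368-40260427 (mm8) and stood at percentile 89.7, just under the high class. Il1rap, the accessory chain that Il1r1 needs to signal, had 5 probes that did not give one answer. The probe at 26616645-26616704 on chromosome 16 had ratios of 1.34, 1.71 and 0.70, a 2.38-fold difference (1.25 ± 0.21; adjusted p = 0.00318). The probe at 26632336-26632395 had ratios of 1.29, 1.64 and 0.05, and its mean was just under 2-fold (0.99 ± 0.29; adjusted p = 0.0292). Without mouse 3 its ratio was 1.46 and past the threshold. Of the others, one gave 0.17 ± 0.18 (adjusted p = 0.48) and 2 were not tested.

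In the interleukin-1 family, grouped with earlier results of these data known, 2 of 22 tested probes were higher and 5 lower. Over all probes tested 7.09% were higher and 10.2% lower. The median log2 ratio of the family was -0.03, so most of its probes were not called. Lower were probes of Il1r2, Il1rn, Il1rl2, Il18 and Il33. Il1r2, a decoy that binds interleukin-1 without signalling, had ratios of -1.41, -0.89 and -1.23 at one probe (-1.18 ± 0.17; limma adjusted p = 0.00145). At its other probe they were -0.99, -0.84 and -0.04 (-0.62 ± 0.21; adjusted p = 0.0505), again with mouse 3 apart. Il1rn, the secreted antagonist of Il1r1, had a lower probe that no CPE sample showed above background. Its ratios were -1.43, -0.74 and -1.53 (mean -1.23 ± 0.20, limma adjusted p = 0.00234). The mean is a 2.35-fold difference, whose size rests on a CPE signal near background. The other Il1rn probe gave 0.13 ± 0.16 (adjusted p = 0.551), so its 2 probes disagreed. Without background correction the lower probes of Il1r2 (-0.92) and Il1rn (-0.85) did not reach 2-fold. Il1rl2, the receptor of interleukin-36, was lower at 1 of 2 probes, with ratios of -1.37, -0.93 and -1.70 (-1.33 ± 0.19; adjusted p = 0.00133), and the other was not tested. Il1rl1, the receptor of interleukin-33, was not tested at any of its 3 probes.

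Il18 and Il33, interleukins that epithelial and stromal cells hold ready for release, were measured in all CPE samples and lower there. Il18 had ratios of -1.52, -1.34 and -1.64, a 2.83-fold difference (-1.50 ± 0.15; limma adjusted p = 0.000318). Il33 had ratios of -1.46, -0.97 and -1.55, a 2.51-fold difference (-1.33 ± 0.17; limma adjusted p = 0.001). Every mouse was below the reference for both, but with median centring neither reached 2-fold (-0.95 and -0.80). For the 2 probes of Il18bp the ratios of 0.34 ± 0.20 and 0.22 ± 0.16 did not pass the test (limma adjusted p = 0.232 and 0.297). Il1b, a ligand of Il1r1, had ratios of 0.29, 1.78 and -0.05, with a mean of 0.67 ± 0.32 (limma adjusted p = 0.141). The difference lay in mouse 2, whose CPE level on the log2 scale was 8.92 against 7.27 and 7.10 in the others, while the reference stayed between 6.98 and 7.15.

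**Figure D4:**
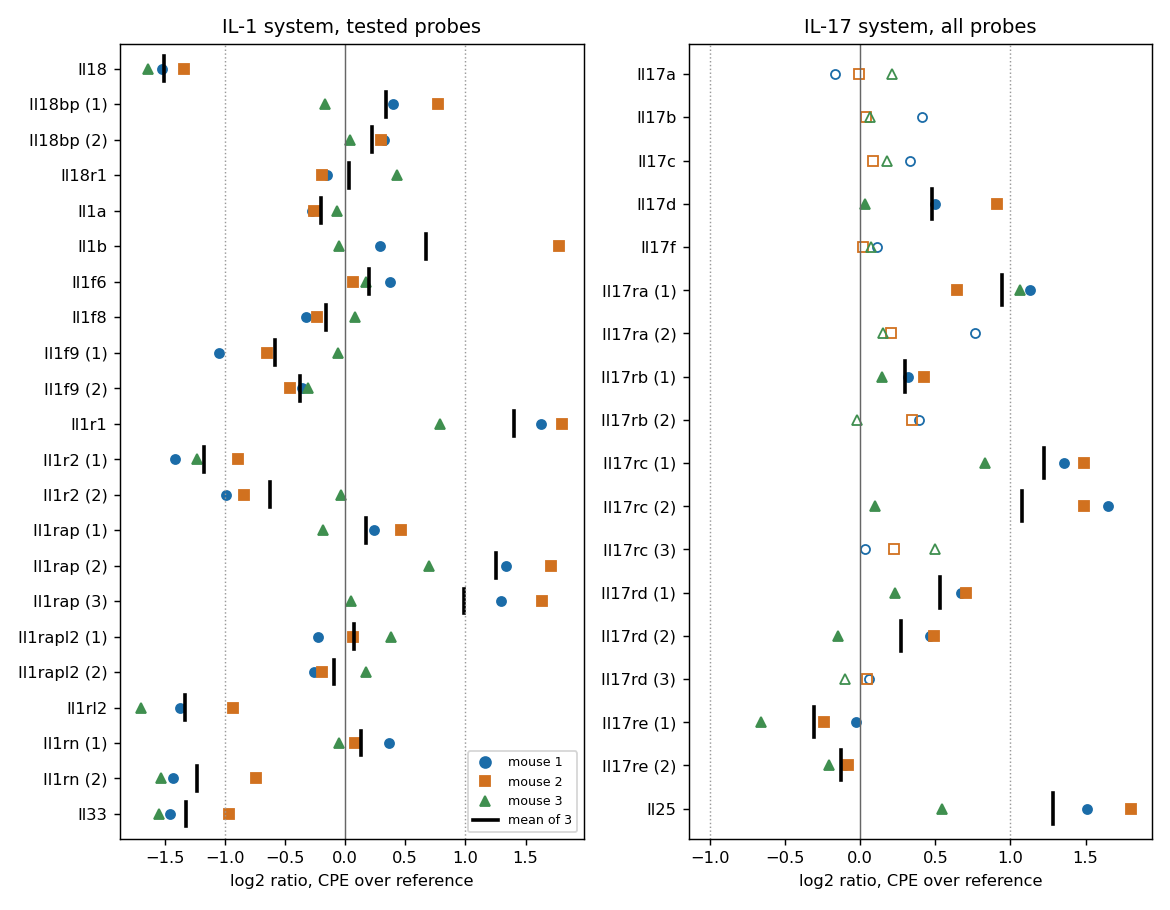
Log2 ratio of CPE over reference (horizontal axis) for tested probes of the interleukin-1 family (left) and all probes of the interleukin-17 family (right), with a marker for each mouse and a black bar for the mean of tested probes. Open markers were not tested, dotted lines mark 2-fold, and probes of one gene are numbered. Il1r1 lay to the right of 0 and Il18, Il33 and Il1rl2 to the left in all 3 mice.

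In the interleukin-17 family, set apart here after its values were seen, 3 of 10 tested probes were higher and 0 lower. Over all probes tested 7.09% were higher and 10.2% lower. The 3 were 2 nearby probes of Il17rc and a probe of Il25. Il17rc, a chain of the receptor for interleukin-17A and interleukin-17F, had ratios of 1.36, 1.49 and 0.83 at a probe on chromosome 6 at 113448848-113448907 (mm8), a 2.34-fold difference (1.23 ± 0.18; limma adjusted p = 0.00167). This probe was in the high class at percentile 93.7. A nearby probe had ratios of 1.65, 1.49 and 0.10 (1.08 ± 0.29; adjusted p = 0.0225), and its call was lost without mouse 1 (0.79), without mouse 2 (0.87), without background correction (0.99) or with the scanner's log ratio. The third Il17rc probe was not tested. Il17ra, the chain shared across the family, was measured in CPE at 1 probe, with ratios of 1.13, 0.64 and 1.06, a 1.93-fold difference under the threshold (0.95 ± 0.17; adjusted p = 0.00381). Without mouse 2, the array scanned on another day, it was past the threshold at 1.10.

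Il25, an interleukin-17 family ligand that barrier epithelia release in type 2 responses, had ratios of 1.51, 1.81 and 0.54, a 2.44-fold difference (limma adjusted p = 0.00534). Every mouse was above the reference, with mouse 3 the nearest to it. Il17rb, the chain that binds interleukin-25, was measured at 1 of 2 probes, with a log2 ratio of 0.30 ± 0.15 (limma adjusted p = 0.166). Il17re gave -0.31 ± 0.18 at a probe that stood at percentile 80.9 (limma adjusted p = 0.205). The ligand Il17d was measured in all 3 CPE samples, at percentile 63.3. Its ratios were 0.50, 0.91 and 0.03, and their mean of 0.48 ± 0.20 did not pass (limma adjusted p = 0.0918). The ligands Il17a, Il17b, Il17c and Il17f were each above background in 1 CPE sample and were not tested.

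Among the CC ligands the lower members were neighbours of others that did not pass. On chromosome 11, 5 genes lie within 83341989-83480804 (mm8), in the order Ccl5, Ccl9, Ccl6, Ccl3 and Ccl4. Ccl6, a chemokine of myeloid cells, had ratios of -2.54, -2.15 and -1.73, a 4.40-fold difference (-2.14 ± 0.19; limma adjusted p = 0.00016). Ccl9, also of myeloid cells, had ratios of -1.17, -1.0 and -1.10, a 2.13-fold difference (-1.09 ± 0.15; limma adjusted p = 0.00123). Both were below the reference in every mouse, but Ccl9 was under 2-fold with median centring (-0.73) and without background correction (-0.97). Ccl5, a T cell and monocyte attractant, had probes at -0.48 ± 0.16 and 0.17 ± 0.15 (limma adjusted p = 0.0479 and 0.422), neither reaching 2-fold.

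A further 6 CC ligands lie at 81853343-81993088 on the same chromosome. Ccl11, or eotaxin, which attracts eosinophils, had ratios of -2.14, -1.78 and -1.65, a 3.63-fold difference (-1.86 ± 0.17; limma adjusted p = 0.000159), and was above background in 1 CPE sample. Ccl8, a monocyte attractant, had ratios of -1.49, -0.90 and -1.13, a 2.25-fold difference (-1.17 ± 0.17; limma adjusted p = 0.00166), which fell under 2-fold without background correction (-0.94). Their neighbour Ccl2, the main monocyte attractant, was measured in CPE with ratios of -0.21, 0.10 and -0.49 around the reference level (-0.20 ± 0.17; limma adjusted p = 0.395). The 2 probes of Ccl7 gave 0.18 and 0.15, and Ccl12 and Ccl1 were not tested. Beside these lower ligands, and beside Il33 and Il18, stand the macrophage, stroma, granulocyte and mast cell markers given above. The marker lists of all leukocytes, T and B cells and endothelium held 0 lower probes. The part of any of these cells in the result was not tested.

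**Figure D5:**
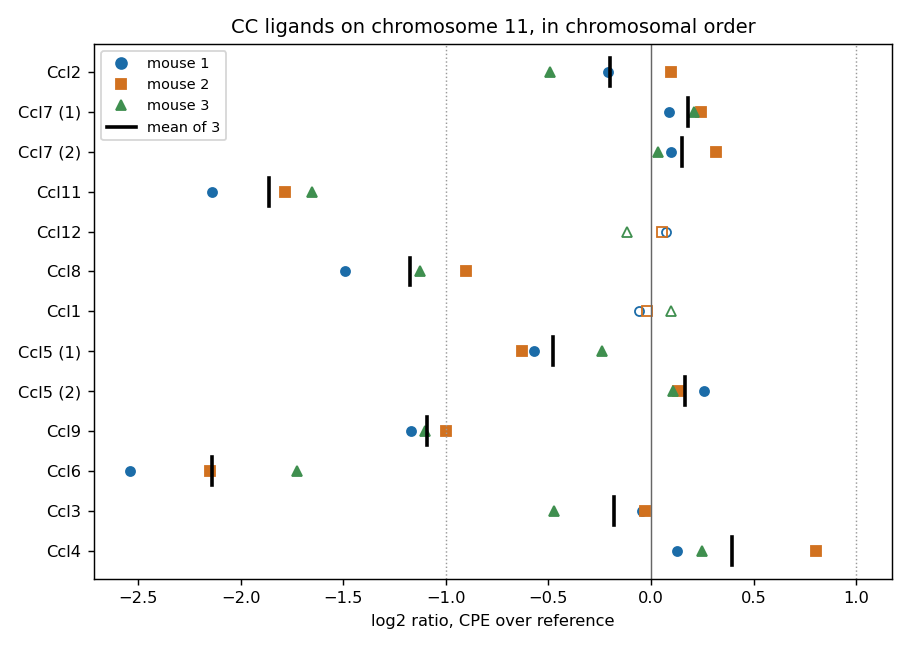
Log2 ratio of CPE over reference (horizontal axis) for the 13 probes of CC ligands on chromosome 11, listed in chromosomal order, with a marker for each mouse and a black bar for the mean of tested probes. Open markers were not tested and dotted lines mark 2-fold. Ccl11, Ccl8, Ccl9 and Ccl6 lay to the left of 0 in all mice, and the other probes lay nearer to 0.

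Cxcl4 and Cxcl7, chemokines stored in platelets, are neighbours on chromosome 5 at 91848449-91848508 and 91845144-91845203 (mm8). Cxcl4 had ratios of -1.56, -0.94 and -2.02, a 2.84-fold difference (-1.51 ± 0.22; limma adjusted p = 0.00156), and stood at percentile 74.9 in CPE. With median centring it was -0.97, under 2-fold. Cxcl7 had ratios of -1.59, -0.97 and -2.16 (limma adjusted p = 0.00165). It was not above background in any CPE sample. With CPE set no lower than the dimmest signal above background, the difference was 2.81-fold. Both followed one order over the mice, with mouse 2 nearest to the reference. The called probes of Il18, Il33, Il1rl2, Il1rn and Cxcr7 had the same order, so it was not particular to Cxcl4 and Cxcl7. In the same region of chromosome 5 as Cxcl4 and Cxcl7, Cxcl1, a neutrophil attractant, gave -0.08 ± 0.16 (limma adjusted p = 0.726), and Cxcl2 was not tested.

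Cxcr7, the receptor that binds and clears Cxcl12, had ratios of -1.63, -1.41 and -1.74, a 3.02-fold difference (-1.59 ± 0.16; limma adjusted p = 0.000255). With median centring the call was lost, at -0.91. Its probe on chromosome 1 at 92046399-92046458 (mm8) was at percentile 90.1 in CPE, at the edge of the high class, and left it in the deposited levels, with loess before Aquantile, or without mouse 2 or mouse 3. Cxcr4, the signalling receptor of Cxcl12, had probes at 0.46 ± 0.18 and 0.39 ± 0.20 (limma adjusted p = 0.0754 and 0.158). Ccr6, which pairs with Ccl20, was above background on no array in either channel.

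Further members were measured in all CPE samples and stayed under 2-fold. Cxcl16, a transmembrane chemokine that also acts as a scavenger receptor, was 1.81-fold lower at one probe (-0.85 ± 0.16; limma adjusted p = 0.00503) and 1.34-fold lower at the other (adjusted p = 0.0913). Ccl19, a lymphoid chemokine, had probes at -0.60 ± 0.17 and -0.50 ± 0.15 (adjusted p = 0.0273 and 0.0339). Ccl25, the ligand of Ccr9, went the other way at 0.59 ± 0.18 and 0.71 ± 0.19 (adjusted p = 0.0314 and 0.0202). A further Ccl25 probe was above background in no CPE sample, stood at percentile 26.7 and was not tested. Il13ra1, which joins Il4ra in a receptor for interleukin-4 and interleukin-13, gave 0.67 ± 0.19 (adjusted p = 0.028) and 0.33 ± 0.18 (adjusted p = 0.183). Il4ra itself had ratios of 0.07, 0.26 and -0.24 (adjusted p = 0.909). Cxcl14, an epithelial chemokine, gave -0.08 ± 0.17 (adjusted p = 0.754).

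Other genes of the chemokine system, from a list of scavenging receptors and related proteins outside the naming rule, had 2 higher and 2 lower probes of 12 tested. Each count is 16.7%, against 7.09% higher and 10.2% lower over all probes tested. Ccrl1, a scavenger of Ccl19, Ccl21 and Ccl25, was higher at 1 of 2 probes, with ratios of 2.64, 2.03 and 1.80 (2.16 ± 0.20), and Cmtm8 was higher with ratios of 2.21, 2.61 and 1.90. Darc, the chemokine-binding receptor of venules and red cells, was lower at both probes, with means of -1.14 and -2.31. Among genes that carry cytokine signals inside or at the cell, 3 probes were higher and 3 lower of 35 tested. Each count is 8.57%, near the shares of the whole array. Irak1, a kinase below Il1r1, was higher at 2 of 3 probes (1.14 and 1.09), whereas Irak2 was lower (-1.19). Cntfr, the binding chain for ciliary neurotrophic factor, was higher (1.93), and Osmr, the oncostatin M receptor chain, was lower at 1 of 2 probes (-1.87). Stat3, a transcription factor used by Il6st, was lower at 1 of 2 probes (-1.19).

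Probes of one gene often differed. Of the 45 member genes with more than 1 probe, 17 had probes in different classes. Of the 5 such genes with a probe past the threshold, 1 (Il17rc) had every tested probe past it where at least 2 were tested. The median SD of the log2 ratio between mice was 0.26 over the 105 members tested and 0.26 over all probes tested. The largest SDs of CPE level among measured members belonged to Il28ra, the lambda interferon receptor chain (1.25 on the log2 scale), the 2 brighter Il1rap probes (1.12 and 0.90), Il1b (1.00) and Il18bp (1.00). Il28ra had CPE levels of 8.56, 8.92 and 6.60. Mouse 3 was the low sample for Il28ra, Il1rap and Il18bp, and mouse 2 the high one for Il1b.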

How the data were processed

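Per the submitters' processing notes, the authors read the arrays with Agilent Feature Extraction 9.5.3.1 and normalized them in R 2.14.0 with limma. The deposited scanner tables hold the intensity of each spot in both channels, flags for spots well above background, and a log10 ratio of red over green. A deposited table holds log2 levels of the CPE channel, which the authors normalized between arrays with Aquantile.

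Here, with R 4.3.3 and limma 3.58.1, control and outlier spots were left out, spots of a probe averaged, and intensities corrected with normexp (offset 50) and loess. Of 41174 probes, 25841 were well above background on every array in red, in green or in both, and were tested in an intercept-only limma model with Benjamini-Hochberg adjustment over all of them; an SE is the moderated one. A call needed an adjusted p under 0.05 and 2-fold. For the Cxcl7 fold, each CPE level was set to the dimmest signal above background or the probe's own level, whichever was higher. Percentiles follow the study's methods, from mean red intensity with Aquantile. Array number limits precision. The fit was tested on simulated data.

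Accessions of 162 member probes matched RefSeq, which now lists Cxcl4 as Pf4, Cxcl7 as Ppbp and Cxcr7 as Ackr3. Probe positions are mm8, with no annotation of that build used. Members, lists and tests were chosen with earlier results of these data known. Named were all members past the threshold or above the 90th percentile, the 5 with the largest CPE spread, and a fixed list that included Il34, which no member probe carries; some neighbours and partners were added after their values were seen. One member gene is not reported here by name. The human arrays were not used here.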

Additional observations from a re-analysis of the deposited data

How the results depend on the processing

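No called probe changed direction under any alternative. Median centring gave 11 higher and 7 lower members; Ccl9, Cxcl4, Cxcr7, Il18 and Il33 fell under 2-fold (-0.73 to -0.97), and Ccl4, Cx3cl1, Cxcl12, Il10rb, Ccl25 and a further Il1rap probe passed. Restricting to probes measured in both channels left 9 members (3 higher, 6 lower), since 8 of the 17 were then not tested. Testing against 2-fold left 2 (0 higher, 2 lower). Without background correction 12 remained, the calls of Ccl8, Ccl9, Il1r2, Il1rn and an Il17rc probe being lost; with the scanner's log ratio 22 were called, with array weights 18 and without a filter 17. Leaving out a mouse gave 16 to 18 members, of which 4 to 6 were higher and 12 lower. Counts over the whole array moved too, from 1833 higher and 2629 lower to 3744 and 1842 with median centring. They were 1615 and 2030 in both channels, 455 and 959 against 2-fold, and 1517 and 2159 without background correction. The scanner's log ratio gave 2850 and 3912, array weights 2200 and 2719, and no filter 1828 and 2609. Without a mouse 1433 to 2482 were higher and 2591 to 2829 lower. Mice 1 and 3 were scanned on one day, so leaving out mouse 2 is the value within that day. Ranking only probes measured in CPE left 4 members high and 11 moderate, because dim probes left the ranking; the other rankings gave 7 to 9 high. Measured on at least 2 of 3 arrays were 82 members. No paired analysis was possible because the 3 samples form 1 group. With 3 arrays, no dye swap and 1 reference RNA, dye bias and the reference's own spread cannot be told apart from the tissue difference, and 86 members were too dim to test.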

Other observations

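Il8rb (now Cxcr2), a receptor of the neutrophil attractants, was bright on the array of mouse 3 alone, in both channels. Its 2 probes had CPE levels on the log2 scale of 7.51 and 6.74 in mouse 1, 7.40 and 6.70 in mouse 2, and 10.1 and 9.49 in mouse 3. The reference, the same RNA on every array, read 7.12 and 6.22, then 7.15 and 6.23, then 9.55 and 9.33. Neither probe was tested.

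Members tested correlated between mice in their log2 ratios with r = 0.93 for mice 1 and 2, 0.77 for mice 1 and 3 and 0.73 for mice 2 and 3, across 105 probes that share arrays and are not independent. Over all tested probes the values were 0.89, 0.88 and 0.81.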
